A study of Mus musculus with 7 samples.

Results

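Abcg2 and 4 other genes of ATP-binding cassette (ABC) exporters, Abca1, Abca7, Abcc5 and Abcb4, were followed over mouse bone marrow cells. They are 5 of the 8378 genes that the platform annotation named from a probe set with exactly 1 gene symbol, and they held 6 of the 16255 probe sets once the manufacturer's controls were set aside. Abcc5 was read by 2 probe sets, whose identifiers end in _a_at and _at and which are called the first and the second here, and the other genes by 1 each. All 5 genes passed the submitters' filter, which kept probe sets called Present or Marginal on every array.

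All marrow came from recipient mice of a bone marrow transplant (BMT) and was profiled on 7 Affymetrix Mouse430_2 arrays. The mock group (3 arrays) was whole marrow of recipients whose transgene is labelled mock, and the ABCG2 group (2 arrays) was whole marrow of recipients of cells with an ABCG2 transgene. The marrow with the EZH2-Mt transgene came from recipients described as MDS-like, MDS being taken here as myelodysplastic syndrome, and was sorted on green fluorescent protein (GFP) into a GFP-positive fraction (1 array) and a GFP-negative fraction (1 array). The labels name a recipient mouse for each array but number none, and p-values here measure only how far these arrays spread. Strain, age, time after transplant, the species of the ABCG2 cDNA, the change in EZH2-Mt, the promoter and the share of marrow cells that carried a transgene are not given in the sources used here, and host cells may have remained.

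ABC exporters use ATP to move substrates out of the cytosol or from one leaflet of a membrane to the other. ABCG2 works as a dimer, carries drugs, porphyrins and urate, and is known in marrow for the dye efflux of the side population, which is rich in stem cells, and for its presence in maturing red cells. ABCA1 loads cholesterol and phospholipid onto apolipoprotein A-I, ABCA7 is a close relative that moves phospholipid and takes part in phagocytosis, ABCB4 flips phosphatidylcholine into bile in the liver, and ABCC5 (MRP5) exports cyclic nucleotides and other organic anions.

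The values are normalized log signals that the submitters had centred on each probe set's median over the 7 arrays. A value of 0 is therefore that median, the sign says whether an array lies above or below it, and no level can be compared between genes. No source states the logarithm's base, which is taken as 2 for every fold given here. Whole marrow and sorted fractions are mixtures, so fewer cells of a type and less RNA per cell cannot be told apart.

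The RefSeq table of assembly GRCm38.p6 gives 3 transcription start windows for Abcg2, each from 250 bases before to 50 bases after a start on the plus strand. They are shown because the lead gene has several starts, while the array gave a single probe set for it, so its values cannot be assigned to a start. Capitals mark 6 motifs searched on both strands: the GC box GGGCGG, the GATA motif AGATAA, the hypoxia response core ACGTG, the dioxin response core GCGTG, the antioxidant response core TGACNNNGC and the cyclic AMP response element TGACGTCA.

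Abcg2 window 1, chr6:58584283-58584582: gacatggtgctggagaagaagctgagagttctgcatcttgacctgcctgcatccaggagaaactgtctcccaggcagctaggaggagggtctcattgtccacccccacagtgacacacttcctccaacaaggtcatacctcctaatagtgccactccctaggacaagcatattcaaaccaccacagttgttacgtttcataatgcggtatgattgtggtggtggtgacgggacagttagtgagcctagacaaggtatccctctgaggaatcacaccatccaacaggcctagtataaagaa
Abcg2 window 2, chr6:58596422-58596721: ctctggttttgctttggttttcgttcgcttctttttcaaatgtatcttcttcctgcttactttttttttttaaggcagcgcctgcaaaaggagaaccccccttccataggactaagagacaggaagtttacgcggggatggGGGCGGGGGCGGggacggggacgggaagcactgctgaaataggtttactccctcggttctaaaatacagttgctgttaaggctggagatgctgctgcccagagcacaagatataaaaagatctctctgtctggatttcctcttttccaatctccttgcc
Abcg2 window 3, chr6:58640296-58640595: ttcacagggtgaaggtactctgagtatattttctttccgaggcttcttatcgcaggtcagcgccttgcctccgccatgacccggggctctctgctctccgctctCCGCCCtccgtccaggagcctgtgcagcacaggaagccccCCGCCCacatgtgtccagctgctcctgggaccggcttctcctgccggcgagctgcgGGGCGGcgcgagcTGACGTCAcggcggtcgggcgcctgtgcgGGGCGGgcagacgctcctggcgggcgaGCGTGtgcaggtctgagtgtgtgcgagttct

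Window 1 held 0 of these motifs. Window 2 held 2 GC boxes that lie end to end, and window 3 held 4 GC boxes, 1 dioxin response core and 1 cyclic AMP response element. Of all 32851 windows of this length in the table, 35.7% held a GC box, 32.4% a dioxin response core, 1.79% the cyclic AMP response element, 19.6% the hypoxia response core, 12.4% the antioxidant response core and 11.2% the GATA motif. Window 3 was also the richest in G and C, at 67.0% with 28 CpG pairs, against 50.0% and 3 in window 1 and 48.0% and 10 in window 2. The median over all windows was 52.7% and 7 CpG pairs. A match is only a match of letters in these windows, and 0 matches only says that the letters are not there.

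Abcg2, the drug and porphyrin exporter, was lowest on the arrays labelled ABCG2 and highest on the EZH2-Mt arrays. Its centred signal was 0.02, -0.17 and 0.00 on mock arrays 1 to 3 and -0.92 and -0.91 on the arrays labelled ABCG2. It was 0.84 in the GFP-negative and 1.35 in the GFP-positive fraction. The groups did not overlap: both ABCG2 arrays lay below every mock array, and both EZH2-Mt arrays lay above every mock array. In order from low to high the levels ran ABCG2, mock, GFP-negative, GFP-positive. The first step was tested, and the other steps rest on 1 array for each fraction.

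Between the arrays labelled ABCG2 and mock, Abcg2 was lower by 0.86 ± 0.14 log2 (difference -0.86, standard error, n = 2 against 3 arrays, 95% interval -1.21 to -0.52), which is 1.82-fold. The limma adjusted p, over all 16255 probe sets, was 0.00276. An exact permutation test over these 5 arrays gave a two-sided p of 0.2, the smallest that 10 possible splits can give. With quantile normalization of the centred values over the 7 arrays the difference was -0.445 with a limma adjusted p of 0.158, so the call did not hold there. Whether the mouse probe set can read the transgene is not known from the labels, and the Abcg2 signal therefore does not check the ABCG2 label.

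Of the 6 member probe sets, 4 were lower on the arrays labelled ABCG2 (Abcg2, Abca7 and both of Abcc5), 1 was higher (Abca1) and 1 did not pass (Abcb4), at a limma adjusted p under 0.05. Over all probe sets 25.3% were lower and 31.5% were higher by the same rule, so a call is common in this comparison and its presence alone says little about a member. The 2 groups did not overlap in 5 of the 6 member probe sets, and in 73.2% of all probe sets. The median difference was -1.14 log2 over the 6 member probe sets and 0.11 over all probe sets. Since the members were chosen with earlier results of these data known, these values are not a test of them.

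**Figure D1:**
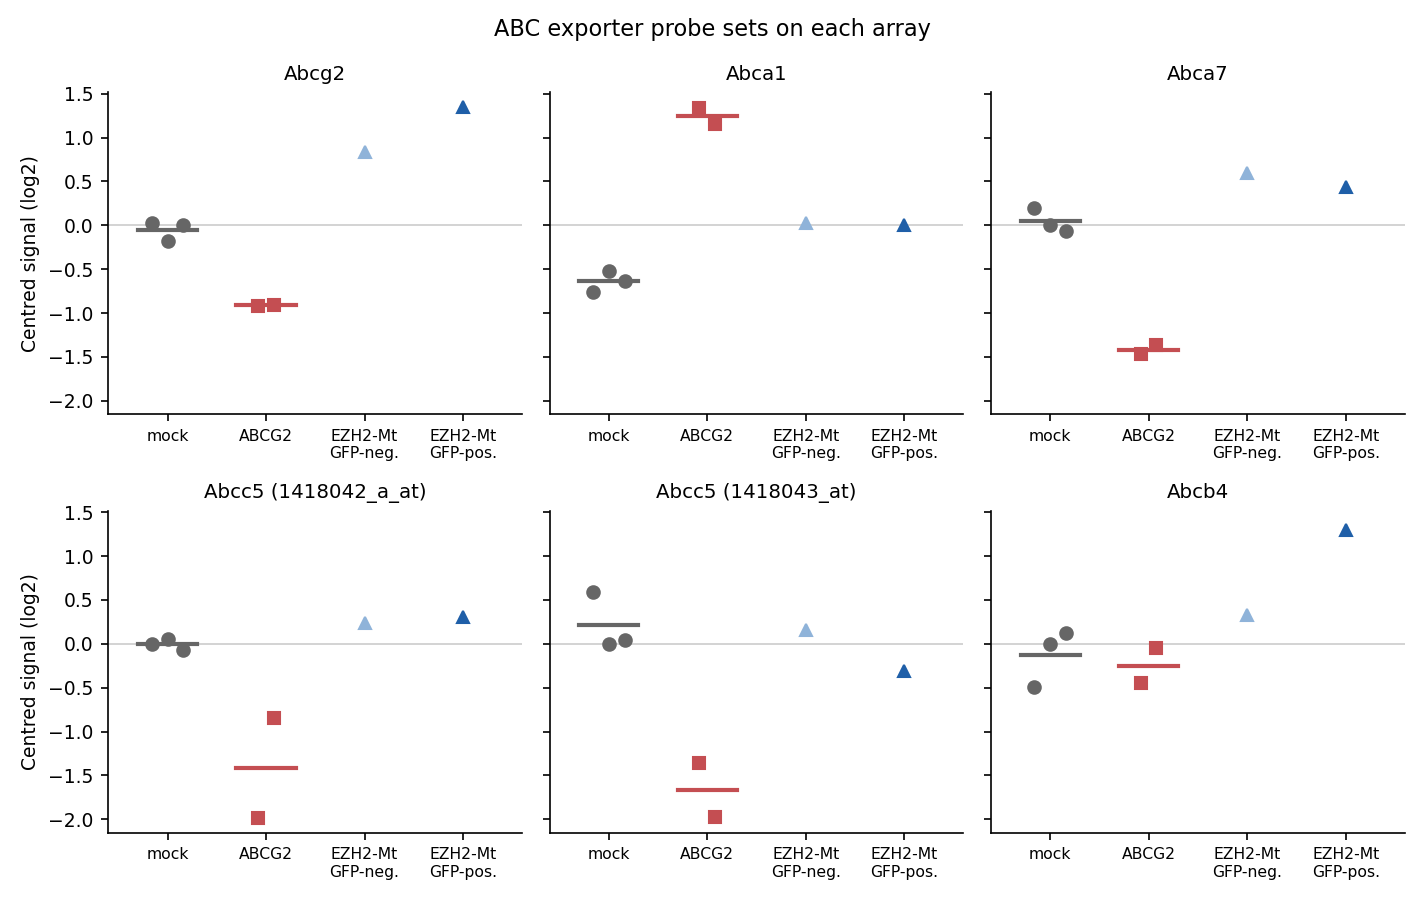
Centred signal (log2) of the 6 probe sets of Abcg2, Abca1, Abca7, Abcc5 and Abcb4 on each of the 7 arrays; each point is an array and bars are means of the mock (3 arrays) and ABCG2 (2 arrays) groups. The ABCG2 arrays lie below all mock arrays in Abcg2, Abca7 and both Abcc5 panels and above them in Abca1. The GFP-positive array is highest in Abcg2 (1.35), Abcb4 (1.30) and the first Abcc5 probe set (0.31).

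Among the lipid exporters, Abca1 went up and Abca7 went down. Abca1, the cholesterol exporter, lay at -0.76, -0.53 and -0.64 on mock arrays and at 1.34 and 1.16 on the arrays labelled ABCG2. The EZH2-Mt fractions stood between, at 0.03 (GFP-negative) and 0.00 (GFP-positive), above every mock array and below both ABCG2 arrays. Abca1 rose by 1.89 ± 0.15 log2 (95% interval 1.52 to 2.25, 3.70-fold, limma adjusted p = 0.000177), with differences from 1.76 to 1.98 over the alternatives tried.

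Abca7, its phospholipid-moving relative, lay at 0.19, 0.00 and -0.06 on mock arrays and at -1.46 and -1.37 on the arrays labelled ABCG2. Both ABCG2 arrays were thus below all other arrays, and the GFP-negative (0.60) and GFP-positive (0.44) arrays were the highest. The difference was -1.46 ± 0.15 log2 (95% interval -1.82 to -1.10, 2.75-fold, limma adjusted p = 0.000438). It was -0.86 with quantile normalization (limma adjusted p = 0.0247).

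Abcb4, the phosphatidylcholine flippase, lay at -0.49, 0.00 and 0.12 on mock arrays and at -0.45 and -0.05 on the arrays labelled ABCG2. These groups overlapped, and the difference of -0.13 ± 0.23 log2 did not pass (limma adjusted p = 0.659). Its 95% interval of -0.69 to 0.43 leaves room for a change in either direction. On the sorted fractions it lay at 0.32 (GFP-negative) and 1.30 (GFP-positive), and the second is the highest of the 7 values.

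Abcc5, the exporter of cyclic nucleotides, was lower on the arrays labelled ABCG2 by both probe sets, but these placed the 2 arrays in opposite order. The first lay at 0.00, 0.06 and -0.07 on mock arrays and at -1.99 and -0.84 on ABCG2 replicates 1 and 2. The second lay at 0.59, 0.00 and 0.04 on mock arrays and at -1.36 and -1.98 on ABCG2 replicates 1 and 2. Every ABCG2 value was below every mock value in both.

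The Abcc5 differences were -1.41 ± 0.32 log2 for the first probe set (95% interval -2.18 to -0.64, 2.66-fold, limma adjusted p = 0.0100) and -1.88 ± 0.26 for the second (95% interval -2.51 to -1.24, 3.68-fold, limma adjusted p = 0.00150). The first was -0.836 without ABCG2 replicate 1 (limma adjusted p = 0.0105) and -0.81 with quantile normalization (limma adjusted p = 0.0472). The 2 probe sets also parted on the EZH2-Mt arrays, at 0.24 and 0.16 in the GFP-negative fraction and at 0.31 and -0.31 in the GFP-positive fraction. The root-mean-square difference between them over the 7 arrays was 0.59 log2, more than the 0.33 between the first of them and Abca7.

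In the EZH2-Mt fractions the members were compared with the mock mean without a test, since each fraction is 1 array. Abcg2 was higher than the mock mean by 0.89 log2 in the GFP-negative and by 1.40 in the GFP-positive fraction, which is 1.85-fold and 2.65-fold, beside a range of 0.20 between mock arrays. Abcb4 was higher by 0.45 and 1.42, beside a mock range of 0.61. Abca1 was higher by 0.67 and 0.64, and Abca7 by 0.56 and 0.40. Abcc5 differed by 0.24 and 0.31 (first probe set) and by -0.05 and -0.52 (second).

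A difference of 1 log2 or more above the mock mean was reached by 2 of the 6 member probe sets in the GFP-positive fraction (Abcg2 and Abcb4) and by 0 of 6 in the GFP-negative fraction. Over all probe sets the shares were 7.97% and 4.1%. With quantile normalization Abcg2 reached 1.12 and Abca1 1.10 in the GFP-negative fraction, and Abca1 1.04 in the GFP-positive fraction. Each fraction lay above every mock array in 5 of the 6 member probe sets, against 39.1% of all probe sets for GFP-negative and 43.4% for GFP-positive. Both fractions above and both ABCG2 arrays below every mock array, the order seen in Abcg2, was also found in Abca7 and in the first Abcc5 probe set. With Abcg2, which set the order, these are 3 of 6 member probe sets, against 7.5% of all probe sets. The members were chosen with earlier results of these data known, so none of these shares is a test of them. The EZH2-Mt and ABCG2 contrasts share the mock arrays.

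Between the fractions, Abcg2 was higher in GFP-positive than in GFP-negative marrow by 0.52 log2, and Abcb4 by 0.98. Abca1 (-0.03), Abca7 (-0.16) and Abcc5 (0.07 and -0.47) differed by less than Abcg2 did. With quantile normalization this order turned: the difference was 0.14 for Abcg2, -0.39 for Abca7 and -0.60 for the second Abcc5 probe set, with -0.05 for the first, -0.06 for Abca1 and 0.73 for Abcb4. There is no replicate of either fraction to set these differences against.

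**Figure D2:**
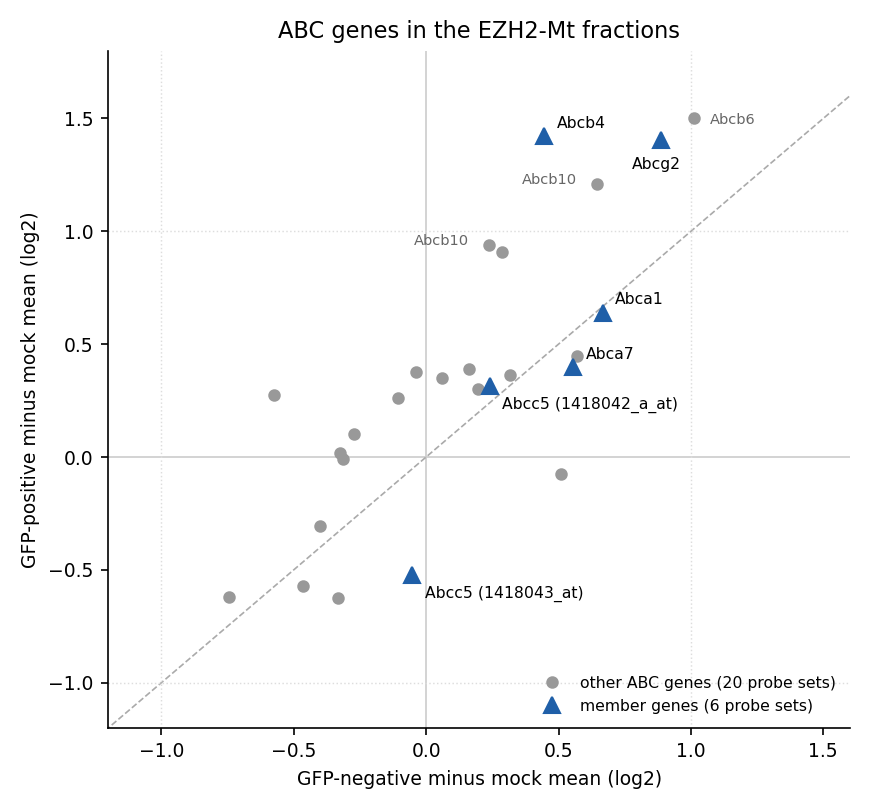
Difference from the mock mean (log2) in the GFP-negative (horizontal axis) and GFP-positive (vertical axis) EZH2-Mt fractions, for the 6 member probe sets (triangles) and 20 probe sets of other ABC genes (circles); each axis is 1 array against 3 mock arrays, dotted lines mark 1 log2, and the dashed line marks equal differences. Abcg2 (0.89 and 1.40) and Abcb4 (0.45 and 1.42) stand above the dashed line, and Abca1 and Abca7 lie close to it.

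The external control RNAs differed between the groups, and their group order was that of Abcg2. Medians over 16 probe sets of the hybridization controls (BioB, BioC, BioD and Cre) lay from -0.01 to 0.01 log2 on mock arrays, at -0.31 and -0.43 on the arrays labelled ABCG2, at 0.93 in GFP-negative and at 2.20 in GFP-positive marrow. The 4 probe sets of BioB alone had medians of -3.07 and -3.20 on the ABCG2 arrays, from -0.03 to 0.00 on mock arrays, and 0.99 and 2.47 in the fractions. Medians over 24 probe sets of the labelling controls (Dap, Lys, Phe and Thr) were 0.00 on mock arrays, -1.04 and -1.49 on ABCG2 arrays, 1.79 in GFP-negative and 3.50 in GFP-positive marrow. The median over all other probe sets lay from 0.00 to 0.01 on every array. The difference between 3′ and 5′ probe sets of β-actin, a sign of RNA quality, was from -0.05 to 0.04 on mock arrays, 0.40 and 0.42 on ABCG2 arrays, 0.14 in GFP-negative and 0.31 in GFP-positive marrow. For Gapdh it was from -0.08 to 0.10 on mock arrays, -0.08 and -0.11 on ABCG2 arrays, 0.09 in GFP-negative and 0.35 in GFP-positive marrow. Each of these probe sets was centred on its own median, so the values compare arrays and give no 3′ to 5′ ratio for an array. The part of the control RNA and 3′ to 5′ differences in the values of Abcg2 and the other members was not tested. The SD of the centred values over all probe sets was from 0.33 to 0.42 on mock arrays, 1.06 and 1.13 on ABCG2 arrays, 0.41 in GFP-negative and 0.54 in GFP-positive marrow. It measures how far an array lies from the probe set medians, not the spread of its uncentred signals. The ABCG2 titles carry a tag that other titles lack, and a batch behind it cannot be told apart from the group.

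Of 48 other ABC genes listed, 14 were measured, by 20 probe sets. On the arrays labelled ABCG2, 9 probe sets (7 genes) rose, 3 (2 genes) fell and 8 did not pass (limma adjusted p under 0.05), with a median of 0.42 log2, beside 31.5% higher and 25.3% lower over all probe sets. Both directions were seen among exporters. Of the lipid exporters, these rose: Abcg1, which passes cholesterol to high-density lipoprotein, by 1.30 ± 0.17 and 1.25 ± 0.29 by its 2 probe sets, and Abca3, the lipid pump of lamellar bodies, by 0.91 ± 0.19 by 1 probe set, while the other (0.41 ± 0.29) passed only without mock replicate 3 or with the replicate block. The second Abcg1 probe set and Abca3 did not pass with quantile normalization.

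Among exporters of anions, Abcc4, which carries cyclic AMP and prostaglandins, fell by 1.11 ± 0.14 log2 (limma adjusted p = 0.00101), in the direction of Abcc5. Abcc1, the exporter of glutathione conjugates, was at -0.13 ± 0.15 and did not pass. Of the mitochondrial transporters, Abcb6, linked to porphyrin transport, rose by 1.57 ± 0.23 (limma adjusted p = 0.00181), and Abcb10, which supports heme synthesis, fell by 0.95 ± 0.19 and 0.52 ± 0.15. In the EZH2-Mt fractions Abcb6 was above the mock mean by 1.01 (GFP-negative) and 1.50 (GFP-positive), and Abcb10 by 0.64 and 1.21 for 1 probe set and by 0.24 and 0.94 for the other. The Abcb10 group means thus ran in the order of Abcg2. The Abcc4 and Abcb10 calls did not hold with quantile normalization, and the call of Abcb10 at 0.52 was lost under 5 of the alternatives, among them without mock replicate 2 or 3 or ABCG2 replicate 1.

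The peptide transporter gene Tap1 rose by 0.97 ± 0.19 log2, while its partner Tap2 (0.10 ± 0.20) did not pass. Among the family members that do not cross membranes, these rose: Abce1, which recycles ribosomes, by 0.65 ± 0.18 and 0.78 ± 0.20, Abcf1, which takes part in translation initiation, by 0.83 ± 0.15 by 1 of its 2 probe sets (the other was at 0.29), and Abcf2 by 0.47 ± 0.17 (limma adjusted p = 0.0497). Abcf3 (0.44 ± 0.18 and -0.12 ± 0.28), Abcd4 (0.33 ± 0.25) and Abcg3 (0.38 ± 0.30) did not pass, though Abcd4 did without mock replicate 1. The calls of Tap1, Abce1, Abcf1 and Abcf2 did not hold with quantile normalization. Those of Abce1 were lost also without mock replicate 2 or ABCG2 replicate 2 (1 of them without mock replicate 1 too). That of Abcf2 was lost also with array median centring, array weights, robust eBayes or the replicate block, and without mock replicate 1 or 2 or either ABCG2 array.

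**Figure D3:**
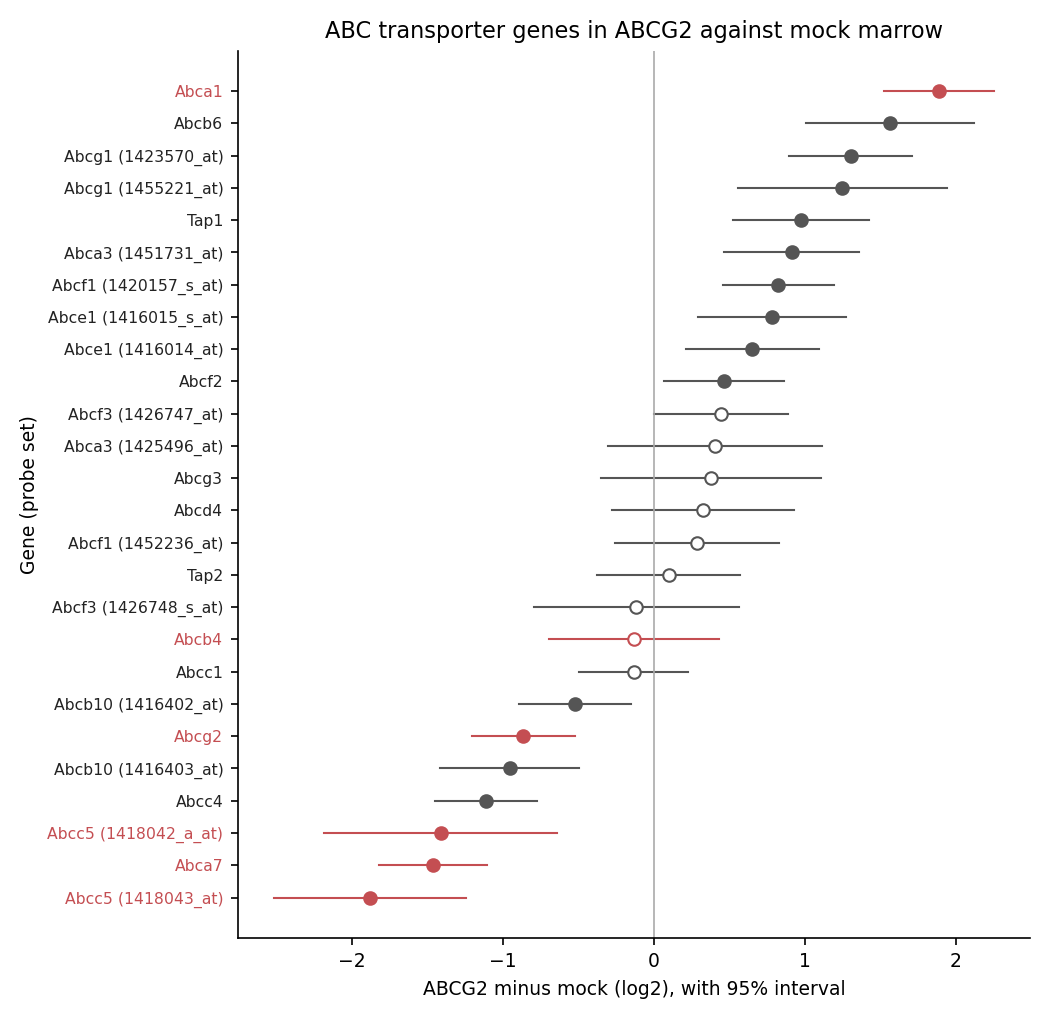
Difference between ABCG2 (2 arrays) and mock (3 arrays) marrow in log2 with limma's 95% interval for 26 ABC probe sets, sorted by size; red marks the 5 member genes, filled points passed a limma adjusted p under 0.05 and open points did not. Abca1 is at the top (1.89), and Abca7 and both Abcc5 probe sets are at the bottom (-1.41 to -1.88), with Abcg2 at -0.86.

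The cholesterol genes around Abca1 had calls in both directions. Of 30 probe sets of 17 genes of sterol sensing, uptake and efflux, 4 rose and 11 fell, with a median of -0.24 log2; over all probe sets 31.5% were higher and 25.3% lower. The largest rises were in Scap, the sterol-sensing escort of sterol-regulated transcription factors (1.69 ± 0.22), and Cyp51, an enzyme of cholesterol synthesis (1.01 ± 0.26). The other Cyp51 probe set was at 0.03 ± 0.27. The largest falls were in Apoe, a lipid acceptor secreted by macrophages (-2.83 ± 0.33), Npc2, which hands on cholesterol in lysosomes (-1.87 ± 0.20 by 1 of 3 probe sets), and the cholesteryl ester hydrolase gene Nceh1 (-1.68 ± 0.20 and -1.43 ± 0.17). The Cyp51 call was lost with quantile normalization and without ABCG2 replicate 1, and the Nceh1 differences were -1.08 and -0.87 with quantile normalization. Apoe was also below the mock mean in both EZH2-Mt fractions, by 1.90 (GFP-negative) and 1.27 (GFP-positive), differences of -1.90 and -1.27.

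Heme synthesis passes through porphyrins, which ABCG2 can carry. Of 23 probe sets of 16 genes, 4 in GFP-negative and 10 in GFP-positive marrow were 1 log2 or more above the mock mean, against 4.1% and 7.97% of all probe sets, and the medians were 0.61 and 0.88. Most of the list did not reach 1 log2, and Hmox2 (-0.84 and -0.25), Flvcr1 (-0.18 and -0.89) and Blvra (-0.07 and -0.43) were below the mock mean in both fractions; the first 2 are named after their values were seen. Fech, which inserts iron into protoporphyrin, was higher by 1.65 to 2.24 over its 3 probe sets in GFP-negative and by 2.23 to 3.27 in GFP-positive marrow. Slc25a37, the mitochondrial iron importer of red cell precursors, was higher by 1.65 and 2.81. On the arrays labelled ABCG2 against mock, 7 of the 23 probe sets rose and 8 fell (31.5% and 25.3% over all probe sets), with a median difference of -0.28. Alas1, which starts heme synthesis in most tissues, fell by 2.50 ± 0.23 and 1.94 ± 0.22, and the mitochondrial membrane protein gene Tspo by 1.72 ± 0.18 to 2.37 ± 0.14. Cpox (1.50 ± 0.17) and Fech (0.65 ± 0.18 to 1.22 ± 0.16), of the last steps of the pathway, rose. Ppox, also of these steps, was at -0.28 ± 0.13 and did not pass (limma adjusted p = 0.115). The lowest of the Fech values lost its call with array weights or the replicate block, and without mock replicate 1 or 3 or ABCG2 replicate 1. With quantile normalization the falls were smaller (Alas1 -1.50 and -1.02, Tspo -1.34 to -1.10) and the Fech rises larger (0.99 to 1.87).

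Of 23 probe sets of 12 regulators that have been linked to Abcg2 transcription, 7 rose, 6 fell and 10 did not pass on the arrays labelled ABCG2, with a median of -0.03 log2. These shares are near those over all probe sets (31.5% higher and 25.3% lower) and are not a result about the regulators. The dioxin receptor gene Ahr rose by 2.14 ± 0.45 (limma adjusted p = 0.00753), and the kinase gene Pim1 by both probe sets, by 1.16 ± 0.23 in the larger. The antioxidant response factor gene Nfe2l2 fell by 1.88 ± 0.36 by 1 of 2 probe sets, and Sp1, whose product binds GC boxes, by 0.58 ± 0.15 to 1.30 ± 0.14 over 3 probe sets. The other Nfe2l2 probe set, at -1.53 ± 0.55, did not pass (limma adjusted p = 0.0509), though it did with quantile normalization, array weights or the replicate block. Rb1, the retinoblastoma gene, fell by 1.56 ± 0.14, and its difference was -0.93 with quantile normalization. The calls of Ahr, Pim1, Nfe2l2 and the smallest Sp1 value did not hold with quantile normalization. The smaller Pim1 value also lost its call without mock replicate 2 or either ABCG2 array. The smallest Sp1 value lost its call also with the replicate block and without mock replicate 2 or ABCG2 replicate 1. In the EZH2-Mt fractions Ahr was below the mock mean, with differences of -1.21 (GFP-negative) and -1.45 (GFP-positive), while its mock arrays spread from -1.28 to 0.35.

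Marker genes of marrow cell types moved between the groups. All measured markers passed the detection filter on every array, and a centred value of 0 is a median and not absence. The list median of 9 neutrophil genes (of 11 listed) lay from -0.30 to 0.02 on mock arrays and at -2.58 and -5.31 on the arrays labelled ABCG2. It lay at 0.36 in GFP-negative and at 1.23 in GFP-positive marrow. All 9 genes fell against mock (9 of 9 probe sets, limma adjusted p under 0.05), beside 25.3% of all probe sets. The call of S100a8 was lost with quantile normalization or the replicate block, and that of S100a9 also without mock replicate 2 or 3. Without ABCG2 replicate 2 the falls of Camp (-2.44), Ngp (-1.52), S100a8 (-0.82), S100a9 (-0.85) and, among the next list, Adgre1 (-1.21) were smaller. For 7 of 8 monocyte and macrophage genes the list median lay from 0.92 to 1.12 on mock arrays, at -3.16 and -2.44 on ABCG2 arrays, and at -0.09 and 0.00 in the fractions. All 10 probe sets of these fell, against 25.3% of all probe sets. Of 3 Ccr2 probe sets, 1 lost its call without mock replicate 2 or either ABCG2 array. For 3 of 8 erythroid genes (Klf1, Ermap and Tfrc) the list median lay from -0.89 to 0.00 on mock arrays, at -0.85 and -0.16 on ABCG2 arrays, at 0.86 in GFP-negative and at 2.51 in GFP-positive marrow. Both Tfrc probe sets rose on the ABCG2 arrays (1.57 and 1.51), beside 31.5% of all probe sets. Klf1 (-0.60) and Ermap (-0.05) did not pass, though Ermap did without mock replicate 1. For 2 of 7 B-lineage genes (Cd79b and Il7r) the list median lay from -2.44 to -1.95 on mock arrays, at 2.27 and 2.96 on ABCG2 arrays, and at 0.72 and 0.51 in the fractions. On the ABCG2 arrays Il7r rose by 5.93 and Cd79b by 3.79, beside 31.5% of all probe sets that rose. The 2 of 6 T and NK genes measured went opposite ways on the ABCG2 arrays: Klrd1 rose by 5.01 ± 0.63 and Nkg7 fell by 1.53 ± 0.21, the second not with quantile normalization. In the fractions Klrd1 was above the mock mean by 4.82 (GFP-negative) and 2.24 (GFP-positive), and Nkg7 was at -0.01 and 0.30 from it. For 2 of 7 stem and progenitor genes (Kit and Flt3) the list median lay from -0.72 to -0.07 on mock arrays, at 1.30 and 1.18 on ABCG2 arrays, and at 0.09 and 0.23 in the fractions. Flt3 rose by 2.84 on the ABCG2 arrays and 1 Kit probe set by 1.02, while the other Kit probe set was at -0.27 and did not pass. The part of these cell types in the values of Abcg2, Abca1, Abca7, Abcc5 and Abcb4 was not tested.

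**Figure D4:**
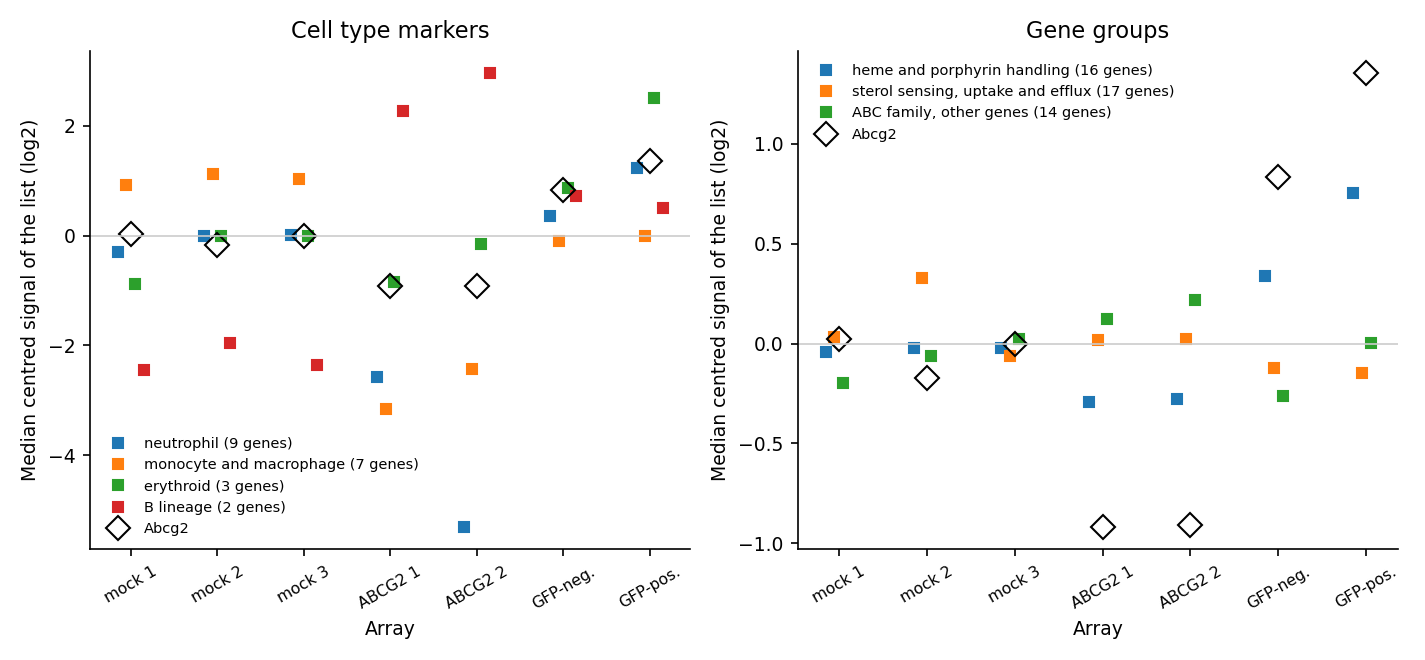
Median centred signal (log2) of gene lists on each array, with Abcg2 as open diamonds; the left panel shows 4 cell type marker lists and the right panel shows heme, sterol and other ABC genes, each square being the median over the genes of the list. Abcg2 and the neutrophil and erythroid medians are highest on the GFP-positive array (1.35, 1.23 and 2.51), and the heme median (0.75) is highest there as well.

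The genes whose values lay closest to those of Abcg2 were found by the root-mean-square difference over the 7 arrays. The 8 closest were Marchf2 (0.14 log2), Diaph1 (0.15), Dtl (0.15), E2f7 (0.17), Serpinb1a (0.17), Glg1 (0.18), Ube2l6 (0.19) and Asb1 (0.20), while the median over all other probe sets was 0.88. Their products are a membrane-bound ubiquitin ligase, a formin, a substrate receptor for ubiquitination at replicating DNA, an E2F repressor, an inhibitor of neutrophil proteases, a Golgi glycoprotein, a conjugating enzyme for ISG15, and a SOCS-box protein. Marchf2, the closest, lay at -0.95 and -0.89 on the arrays labelled ABCG2, at 0.73 in GFP-negative and at 1.02 in GFP-positive marrow. Of the other members, Abca7 (0.46) and Abcb4 (0.47) were nearer to Abcg2 than Abca1 (1.36) and Abcc5 (0.62 and 0.84) were.

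For the other members the 3 closest genes were different. They were Cdip1, Mrm1 and Dpy19l3 for Abca1 (0.09 each), and Sri, Vamp3 and Nt5c3 for Abca7 (0.09 to 0.11). For Abcc5 they were Ptprc, Fbxo5 and Cd52 by the first probe set (0.17 to 0.18), and Rnpep, Cdkn2d and Riok3 by the second (0.12 to 0.15). For Abcb4 they were Rplp0, Tpt1 and Rps29 (0.15 to 0.17), of which Rplp0 and Rps29 encode ribosomal proteins. Rplp0 lay at 0.20 in GFP-negative and 1.06 in GFP-positive marrow.

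**Figure D5:**
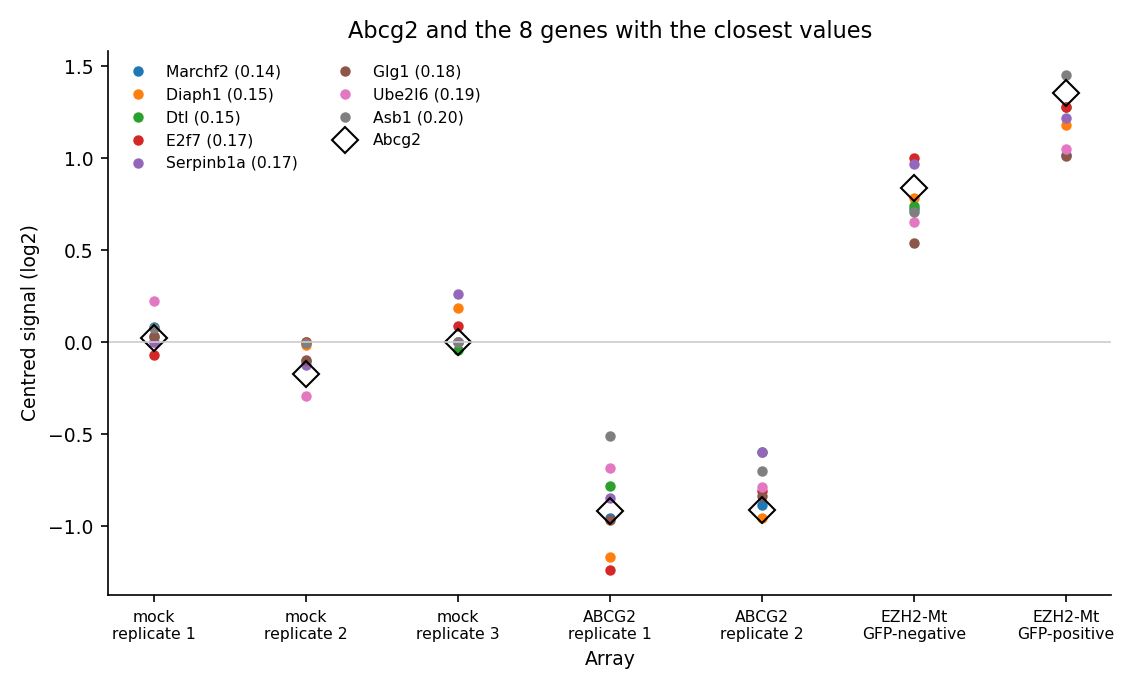
Centred signal (log2) of Abcg2 (open diamonds) and of the 8 genes closest to it on each of the 7 arrays; the number after each gene is its root-mean-square difference from Abcg2 in log2. The 9 genes lie between -0.29 and 0.26 on mock arrays, below it on ABCG2 arrays and above it on both EZH2-Mt arrays.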

How the data were processed

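Total RNA of bone marrow cells was measured on Affymetrix Mouse430_2 arrays. The deposited values are log2 signals (base not stated, taken as 2) of probe sets kept by the authors on raw signal and on Present or Marginal calls in all samples, per the file headers. The submitters' processing notes name MAS5, and scaling between arrays was not given in the sources used here. Each of the 16309 probe sets had a median of 0 over the arrays. Per-sample files and value table held the same values (largest difference 0).

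After 54 control probe sets were set aside, 16255 were fitted with limma 3.58.1 in R 4.3.3 (lmFit, eBayes, two-sided, Benjamini-Hochberg over all, threshold 0.05) on the mock and ABCG2 arrays only. Of these, 14229 had 1 gene symbol, 483 several and 1543 none. On simulated data the fit recovered 50 of 100 changes of 1 log2 and 97 of 100 of 2 log2, with 8 false calls. Far fewer rows were changed there than were called in the data. A change of 1 log2 can thus fail to pass. Values after ± are limma's standard errors. No pseudocount was used. The number of arrays limits precision. Promoter windows came from RefSeq (GRCm38.p6), where all 5 genes matched.

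Members and lists were chosen with earlier results of these data known. All member probe sets and measured ABC genes were reported, of other lists at most the 4 largest calls in each direction, and the 8 genes nearest to Abcg2 (3 for other members, added later).

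Alternatives were quantile normalization of the centred values, array median centring, array weights, robust eBayes, a replicate block, leaving out each array, and means per gene. The replicate numbers are in the titles only.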

Additional observations from a re-analysis of the deposited data

Results flagged for a closer look

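Signals of external control RNAs, which no comparison of genes uses, stood above those of the mock arrays on the EZH2-Mt arrays. The median of the hybridization controls was 2.20 log2 on the GFP-positive array. The median of the labelling controls was 1.79 on the GFP-negative and 3.50 on the GFP-positive array, with mock medians at 0.00.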

How the results depend on the processing

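Quantile normalization forces the same spread on all 7 arrays, and it moved more results than any other alternative run. It was applied to values already centred per probe set, so the spread it makes equal is that of distances from probe set medians. A call lost with it is therefore not the outcome of normalizing uncentred signals. With it, 2112 probe sets were higher and 2350 lower on the arrays labelled ABCG2, against 5122 and 4112, and of the 20 probe sets of other ABC genes 2 rose and 0 fell by limma (3 and 2 at an unadjusted p under 0.05), against 9 and 3. Abcg2 was at -0.445 (limma adjusted p = 0.158). In the EZH2-Mt fractions Abcg2 was then higher than mock by 1.12 (GFP-negative) and 1.26 (GFP-positive), with 0.14 between them. Abca1, Abca7 and both Abcc5 probe sets kept their direction and passed under all alternatives run, and Abcg2 under all but quantile normalization. Leaving out 1 array gave -0.93 to -0.83 for Abcg2 and 4168 to 4635 higher and 3402 to 3807 lower probe sets, with 6 to 10 higher and 2 to 3 lower among other ABC genes. Abcb4, never called, ran from -0.33 to 0.072, the second without ABCG2 replicate 1. With the replicate block Abcg2 was at -0.84 (limma adjusted p = 0.0231), and no member's call changed. Same-numbered arrays correlated in their deviations at 0.08 and -0.04, and a shared number is all that links them. The filter on detection cannot be varied, since unfiltered values were not used here.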
